A study of Arabidopsis thaliana with 12 samples.

Results

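The comparison described here sets the 3 untreated libraries of repeat 2 against the 3 untreated libraries of repeat 1, which are 6 of the 12 libraries of the study. They were chosen by their labels alone, and each repeat 2 library was paired with the repeat 1 library of the same genotype. The genotypes were wild type Col-0 (WT), the asr3-1 mutant, and OX9, a line in which the constitutive 35S promoter drives an HA-tagged ASR3 transgene. ASR3 is a trihelix transcription factor. All plants were 10-day-old *Arabidopsis thaliana* seedlings taken whole. They had germinated on Murashige and Skoog agar with 1% sucrose at 23 °C under days of 12 h of light and nights of 12 h, and had spent a night in water in multiwell plates before sampling. Untreated seedlings received no flg22, the bacterial flagellin peptide that the study used to start an immune response, and the other 6 libraries came from the same genotypes and repeats after 30 min of flg22. Each library was made from RNA of 2 biological replicates pooled in equal amounts and was read as single ends of 100 nt. The labels tie the libraries of a repeat together only by its number and the series' design text calls the repeats independent, so plant growth, sampling, library making and sequencing cannot be told apart as sources of a difference between repeats. The p-values measure only the spread between these libraries. In whole seedlings, fewer cells of a type and less RNA per cell cannot be told apart either.

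Repeats of seedling experiments can differ in processes that follow the time of day and the plant's surroundings. The circadian clock is a loop of repressors: CCA1, LHY and their REVEILLE (RVE) relatives peak around dawn, the pseudo-response regulators (PRR9, PRR7, PRR5, PRR3 and TOC1) follow one another through the day, and GI, ELF3, ELF4 and LUX act towards the evening. Metallothioneins are short, cysteine-rich proteins that bind metal ions. Uptake of iron and sulfate is raised at the transcript level when supply is short, and flavonoids, early light-induced proteins and jasmonate products follow light, wounding and other stress.

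Values are FPKM, fragments scaled by transcript length and by mapped fragments, as the authors deposited them, and differences are of log2(FPKM + 1), repeat 2 minus repeat 1. The FPKM of a library summed to between 994328 and 1056758 in the 6 untreated libraries. Between 19137 and 19224 genes reached 1 FPKM in repeat 2, against 19345 to 19543 in repeat 1. No read totals were found in the tables or labels; the lowest values of single-exon genes of 2000 to 8000 nt, taken as about 1 read, put the depth, in units of 1e+06 reads, near 13.3, 12.0 and 6.74 in repeat 2 (WT, asr3-1 and OX9, the order used throughout), against 7.34, 7.11 and 7.93 in repeat 1. ASR3 (AT2G33550), the check of the genotype labels, had 6.24, 2.50 and 590 FPKM in repeat 2, against 9.59, 6.58 and 521 FPKM in repeat 1. In both repeats it was lowest in asr3-1 and highest in OX9, and its difference between repeats did not pass the test (-0.49, SE 0.26, adjusted p = 0.19), although it did without the OX9 pair (-0.83, adjusted p = 0.028).

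The repeats differed across much of the transcriptome. Of 20045 genes tested, 4243 (21.2%) were higher in repeat 2 and 4211 (21.0%) were lower at an adjusted p under 0.05 (limma, paired by genotype, Benjamini-Hochberg), and the median difference of all genes was 0.01. Transcript length moved with the difference and is a confounder of every result here. Among genes with RefSeq transcripts under 500 nt the median difference was -0.65, with 25 genes higher and 132 lower. Among those of at least 3000 nt it was 0.48, with 1344 higher and 45 lower. The median length was 2403 nt for genes higher in repeat 2 and 1244 nt for genes lower, against 1697 nt for all genes tested. The trend was alike in the 3 genotype pairs, and in the libraries given flg22 the medians of the same classes were -0.63 and 0.56.

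**Figure D1:**
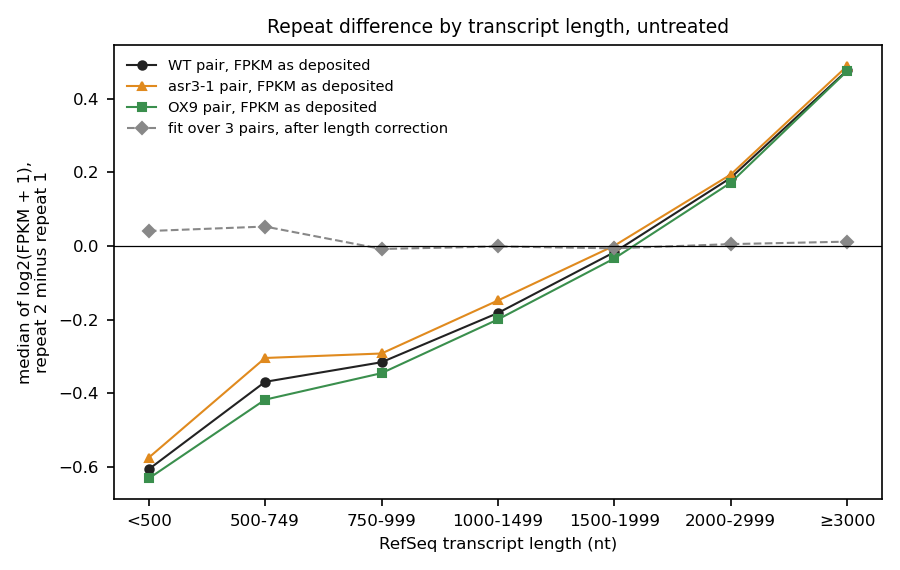
Median difference of log2(FPKM + 1), repeat 2 minus repeat 1, in untreated seedlings (vertical axis) in 7 classes of RefSeq transcript length in nt (horizontal axis). Solid lines are the 3 genotype pairs and the dashed line the fit over all pairs after the length correction. All 3 solid lines climb with length; the deposited values fitted over all pairs, not drawn, have medians of -0.65 under 500 nt and 0.48 at 3000 nt or more, and the corrected medians lie between -0.01 and 0.05.

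A length correction, in which a smooth curve of each library against transcript length was subtracted, was therefore run beside every result, and its value is given wherever it changed the call of a named gene. After it, 2940 of 19988 genes (14.7%) were higher and 3084 (15.4%) lower, with median lengths of 1602 and 1585 nt. Of the genes called as deposited, 2266 of those higher (53.4%) and 2608 of those lower (61.9%) were called the same way after correction, and 10 genes were called in opposite directions. Without the asr3-1 pair the counts as deposited were 2324 higher and 2742 lower, and without the WT pair 2760 were higher.

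The shortest transcripts showed the extreme of the pattern. In all 3 repeat 2 libraries, 92 genes were listed at 0 while their mean in repeat 1 was at least 5 FPKM. Of these, 80 were under 500 nt and 59 under 200 nt. They comprised 44 protein-coding genes, 31 snoRNAs, which guide the modification of ribosomal RNA, and 11 miRNA genes. Under the reverse condition there were 4 such genes under 500 nt. AT3G08520 and AT2G40205, which code for 60S ribosomal proteins of the L41 family and are 246 and 349 nt long, were listed at 0 in repeat 2, against 4801, 3695 and 4071 FPKM and 3926, 2966 and 3100 FPKM in repeat 1. AT2G01021, of 102 nt, was listed at 0 in repeat 2 as well, against 44314, 12675 and 13614 FPKM in repeat 1. An exact 0 in a table of this kind can be a failed estimate, so no fold is given for these genes. Every one of the 12 largest falls named by size was of this type, and the falls described next are of longer transcripts.

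The clock separated the repeats gene by gene. Of the 16 morning-phased clock genes, 6 were higher in repeat 2 and 7 were lower, against 21.2% and 21.0% of all genes tested, and the counts were the same after length correction. Of the 11 evening-phased genes, 6 were higher and 2 lower as deposited and 4 were higher and 3 lower after correction. The median difference was -0.14 over the morning genes and 0.40 over the evening genes (0.13 after correction). Without the asr3-1 pair, 3 evening genes were called higher.

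The dawn repressors LHY and CCA1 were lower in repeat 2, as were some of their relatives and partners. LHY had 22.9, 19.1 and 21.5 FPKM in repeat 2, against 145, 120 and 106 FPKM in repeat 1, a difference of -2.48 (SE 0.10, adjusted p = 0.00011). CCA1, its closest relative and partner, had 49.0, 41.2 and 44.0 FPKM in repeat 2 and 107, 96.9 and 87.9 FPKM in repeat 1 (-1.1, SE 0.08, adjusted p = 0.00068). Every genotype moved the same way, and the libraries of the 2 repeats did not overlap for either gene. RVE2 differed most, with 3.73, 2.86 and 4.18 FPKM in repeat 2, against 35.2, 38.3 and 44.0 FPKM in repeat 1 (-3.13, SE 0.11, adjusted p = 6.9e-05). RVE8, an activator of evening genes, fell by 1.1 and RVE1, a clock output that controls auxin synthesis, fell by 1.02. LNK3 and LNK4, from a family of RVE8 coactivators, fell by 1.31 and 0.60. The 7 genes also fell after the length correction, with LHY at -2.80 and RVE2 at -2.86.

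PRR9 and PRR7, which follow dawn, were higher, but so were some REVEILLE genes, which peak around dawn. PRR9 had 15.3, 16.3 and 19.4 FPKM in repeat 2, against 3.65, 3.73 and 3.53 FPKM in repeat 1 (1.95, SE 0.12, adjusted p = 0.00046). PRR7, which also represses CCA1 and LHY, had 86.0, 83.0 and 86.6 FPKM in repeat 2 and 19.9, 22.6 and 27.4 FPKM in repeat 1 (1.84, SE 0.10). Both sets of libraries stood well apart. RVE7 (EPR1) rose by 1.15, LNK1 by 0.59 and RVE4 (LCL1) by 0.50, and AT5G52660, a homeodomain-like protein listed as RVE6, differed by 0.32. The call on AT5G52660 was lost whichever pair was left out, with adjusted p between 0.086 and 0.17, and that on RVE4 without the asr3-1 pair (adjusted p = 0.054). LNK2, RVE3 (ASG4) and AT4G01280, listed as RVE5, did not pass the test, at 0.01, -0.29 and 0.16, and RVE3 passed without the OX9 pair (-0.53, adjusted p = 0.038).

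Among the evening genes, GI, which stabilises the photoperiod receptor FKF1 and is itself long (4303 nt), had 19.7, 22.3 and 24.5 FPKM in repeat 2, against 4.83, 5.20 and 4.74 FPKM in repeat 1. Its difference was 1.96 as deposited (SE 0.11, adjusted p = 0.00034) and 1.43 after length correction. PRR5, a repressor of the same morning genes, had 8.48, 8.34 and 10.5 FPKM in repeat 2, against 1.79, 2.53 and 2.61 FPKM in repeat 1 (1.61, SE 0.13, adjusted p = 0.00088). PRR3 rose by 1.05 and FKF1 by 0.96, both at low levels, with FKF1 at 2.03, 2.65 and 2.19 FPKM in repeat 2 and 0.748, 0.547 and 0.779 FPKM in repeat 1. TOC1 (0.47) and ELF3 (0.40) passed as deposited but not after length correction, where they were 0.19 and 0.13. In the other direction, ELF4, a small protein that holds the evening complex together, fell by 1.8, with 4.61, 5.99 and 4.17 FPKM in repeat 2, against 19.1, 16.5 and 23.2 FPKM in repeat 1. LUX (PCL1), the DNA-binding part of that complex, fell by 0.45, and by 0.82 after correction. BOA, ZTL and LKP2 did not pass as deposited, at -0.41, 0.16 and -0.05, and BOA passed after correction (-0.72).

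Some calls in this group were lost when a pair was left out, in fits that also hold fewer libraries. LUX and ELF3 lost their calls under each pair left out, with adjusted p between 0.059 and 0.15 for LUX and between 0.054 and 0.11 for ELF3. TOC1 lost its call without the WT pair (adjusted p = 0.055) and without the asr3-1 pair (0.065), and FKF1 without the asr3-1 pair (0.052).

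**Figure D2:**
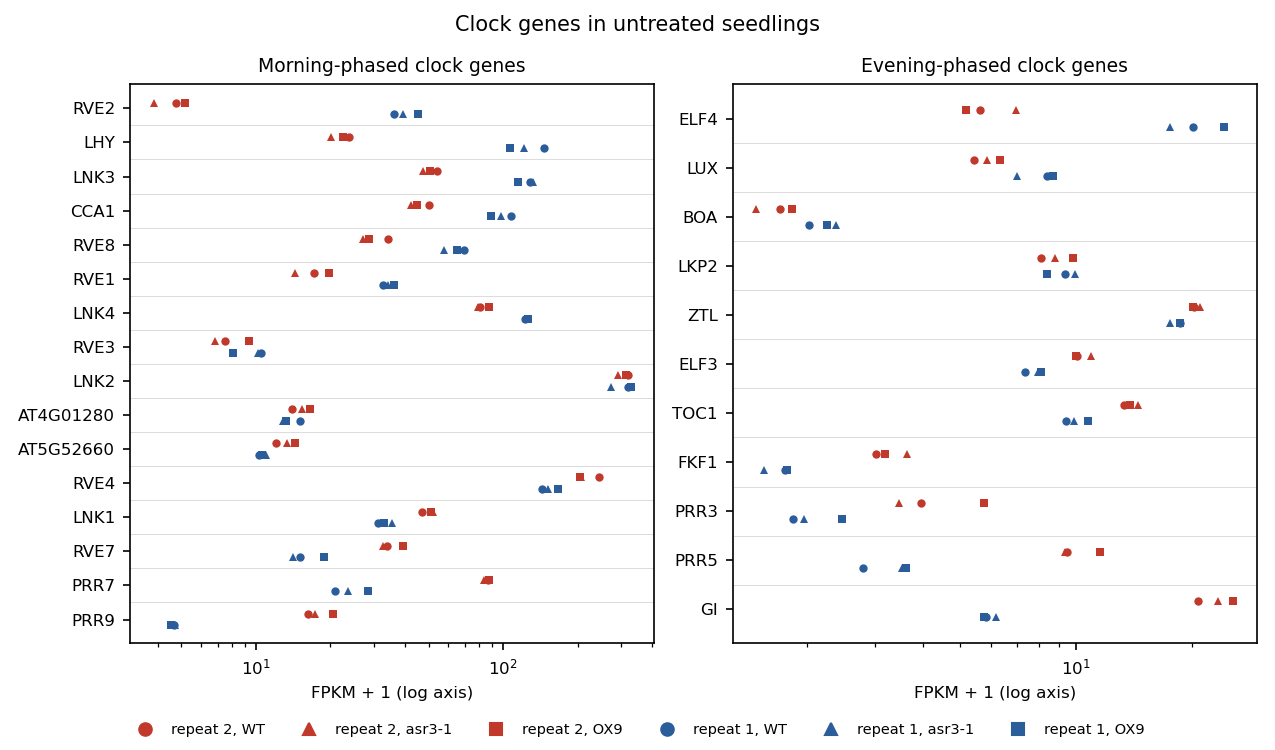
FPKM + 1 of the 16 morning-phased (left) and 11 evening-phased (right) clock genes in untreated seedlings, on log axes. Each gene has its 3 repeat 2 libraries (red, upper row) above its 3 repeat 1 libraries (blue, lower row); circles are WT, triangles asr3-1 and squares OX9. RVE2, LHY, CCA1 and ELF4 lie to the left in repeat 2, and PRR9, PRR7, PRR5 and GI lie to the right.

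Genes driven by the clock were split as well. Of 13 day-phased outputs, 3 were higher and 6 lower (1 higher without the asr3-1 pair), and of 6 evening-phased outputs, 2 were higher and 1 lower. Over all genes tested the shares were 21.2% higher and 21.0% lower, and some of these counts lie near them. CDF2, a repressor of flowering genes, fell by 1.62 and COL2, a relative of the flowering regulator CONSTANS, by 1.61. COL2 had 72.5, 65.8 and 74.6 FPKM in repeat 2, against 235, 225 and 196 FPKM in repeat 1. COR27, an evening-phased gene that cold also induces, had 9.93, 9.71 and 9.61 FPKM in repeat 2, against 1.5, 0.957 and 2.42 FPKM in repeat 1 (2.07, SE 0.18, adjusted p = 0.0010). CAT3, a catalase with an evening peak, had 1547, 1587 and 1176 FPKM in repeat 2, against 698, 835 and 759 FPKM in repeat 1 (0.90, SE 0.11). For COR27 and CAT3 all repeat 2 libraries lay above all repeat 1 libraries. FT, the mobile signal for flowering, was the evening output that fell, with 0, 0 and 0.228 FPKM in repeat 2, against 1.44, 4.72 and 0.903 FPKM in repeat 1 (-1.48, SE 0.37, adjusted p = 0.024). At these low levels its call was lost after length correction (-1.21, adjusted p = 0.061), under quantile normalization (0.058), without the WT pair (0.094) and without the asr3-1 pair (0.072). The RNA-binding proteins GRP7 and CCR1 (GRP8) did not pass, at -0.27 and 0.19; CCR1 passed after length correction (0.42, adjusted p = 0.022) and GRP7 without the asr3-1 pair (-0.53, adjusted p = 0.027).

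The evening element AAAATATCT is the motif bound by CCA1, LHY and the RVE proteins. It was searched on both strands in the 300 bases before each RefSeq gene start (genome build TAIR10.1), and 569 of 19392 tested protein-coding genes held it (2.93%). It was present before 5 of the 11 evening-phased clock genes, 1 of the 16 morning-phased genes, 4 of 6 evening-phased outputs and 1 of 13 day-phased outputs. Of the genes higher in repeat 2, 4.40% held it, and of those lower, 2.44%; among genes that differed by over 1 after length correction the shares were 7.76% of 348 higher and 2.29% of 524 lower. These shares describe letters in a window and not binding. The segments around the motif nearest the gene start follow, with every copy of the motif or its reverse complement AGATATTTT in capitals, read along the strand of each gene, for the clock and output genes in which the element and a called difference occur together. The first 6 were higher in repeat 2 and the last 2 lower.
PRR5 (chr5:8358689-8358769, minus strand): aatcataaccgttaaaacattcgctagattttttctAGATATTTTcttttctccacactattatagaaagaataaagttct
TOC1 (chr5:24674776-24674856, plus strand): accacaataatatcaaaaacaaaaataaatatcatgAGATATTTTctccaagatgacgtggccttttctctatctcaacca
FKF1 (chr1:25508417-25508497, plus strand): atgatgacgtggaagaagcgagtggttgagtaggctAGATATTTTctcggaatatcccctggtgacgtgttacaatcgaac
CAT3 (chr1:7142857-7142937, plus strand): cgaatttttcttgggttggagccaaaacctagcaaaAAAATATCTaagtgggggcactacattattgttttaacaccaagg
COR27 (chr5:17199911-17199966, minus strand): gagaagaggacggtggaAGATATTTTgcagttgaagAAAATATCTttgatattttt
RVE7 (chr1:6308249-6308329, minus strand): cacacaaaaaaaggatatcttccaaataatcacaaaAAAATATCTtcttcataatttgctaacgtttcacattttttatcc
LUX (chr3:17182953-17183033, plus strand): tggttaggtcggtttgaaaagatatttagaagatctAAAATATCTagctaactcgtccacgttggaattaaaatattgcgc
COL2 (chr3:489612-489692, minus strand): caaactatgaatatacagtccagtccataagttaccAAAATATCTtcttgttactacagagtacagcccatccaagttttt

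The transcript with the highest mean FPKM over the 6 libraries, a metallothionein, differed between the repeats. MT1A (AT1G07600) had 133501, 127027 and 152061 FPKM in repeat 2, against 15389, 17498 and 17323 FPKM in repeat 1 (3.04, SE 0.08, adjusted p = 1.1e-05). It made up 13.3%, 12.8% and 15% of the summed FPKM in repeat 2, against 1.46%, 1.71% and 1.71% in repeat 1. No repeat 1 library came near the repeat 2 libraries. In the libraries given flg22 it differed by 3.26. Quantile normalization, which gives the top gene of every library the same value, left 0.62 (adjusted p = 0.44), and the length correction raised the difference to 4.48. The RefSeq model of MT1A holds the coding sequence alone, 138 nt, which is short for an FPKM estimate; which model length the authors used is not stated.

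Its neighbour MT1C (AT1G07610) codes for the same number of residues and shares 131 of 138 coding bases with it (94.9%), so reads may have been split between them. MT1C had 373, 293 and 395 FPKM in repeat 2 and 288, 288 and 272 FPKM in repeat 1 (0.31, adjusted p = 0.064; 0.78 and called after length correction, and 0.45 with adjusted p = 0.040 without the asr3-1 pair). The sum of both genes was 133874, 127320 and 152456 FPKM in repeat 2, against 15678, 17786 and 17595 FPKM in repeat 1. The coding sequences are shown for the copies to be compared, with the 13 cysteine codons of each, whose side chains bind the metal, in capitals.
MT1A (chr1:2338904-2339321, minus strand, 2 exons joined): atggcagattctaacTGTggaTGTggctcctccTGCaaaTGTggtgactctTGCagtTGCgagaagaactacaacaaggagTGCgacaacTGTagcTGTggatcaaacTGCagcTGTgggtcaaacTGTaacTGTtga
MT1C (chr1:2341603-2341865, plus strand, 2 exons joined): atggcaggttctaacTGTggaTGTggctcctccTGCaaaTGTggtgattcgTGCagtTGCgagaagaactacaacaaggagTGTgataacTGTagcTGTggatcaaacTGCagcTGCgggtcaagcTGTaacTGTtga

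The other metallothioneins differed less and in both directions. Of 6 tested, MT1A included, 2 were higher and 2 lower as deposited, with a median of 0.13; after length correction 3 were higher and 0 lower (1 lower at an unadjusted p under 0.05), with a median of 0.50 (quantile normalization gave 0.46), and 2 further genes were listed at 0 in all 6 libraries. The shares over all genes tested were 21.2% higher and 21.0% lower, and 14.7% and 15.4% after correction. MT3 rose by 0.62, with 4056, 5069 and 4194 FPKM in repeat 2 and 3167, 2547 and 2966 FPKM in repeat 1. MT2B fell by 0.67, with 2703, 2450 and 2626 FPKM in repeat 2 and 4698, 3952 and 3753 FPKM in repeat 1, but was at -0.19 after correction (adjusted p = 0.16). MT1B fell by 1.52, a call lost after correction (-1.15, adjusted p = 0.097), without the asr3-1 pair (adjusted p = 0.10) and without the OX9 pair (0.060). MT2A did not pass (-0.05), and its sign turned to 0.22 after length correction and to 0.30 under quantile normalization, where it was called (adjusted p = 0.022).

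Several genes that plants raise when iron is short were lower in repeat 2. The iron list also holds ferritins and other iron genes, so its counts are not of shortage genes alone. Of 38 iron genes tested, 6 were higher and 18 lower, with a median of -0.37 (5 higher, 14 lower and -0.47 after length correction). Among all genes tested, 21.2% were higher and 21.0% lower as deposited, and 14.7% and 15.4% after correction. The related bHLH genes BHLH100, bHLH38 and BHLH101 encode transcription factors of the iron deficiency response. BHLH100 was listed at 0 in repeat 2, against 2.95, 34.7 and 17 FPKM in repeat 1. It was called in the fit (adjusted p = 0.024). The gene bHLH38 was at 0, 0.365 and 0.438 FPKM in repeat 2, against 5.02, 25.7 and 14.3 FPKM in repeat 1 (-3.43, SE 0.33, adjusted p = 0.0017). BHLH101 was at 0.575, 0.390 and 0.361 FPKM in repeat 2, against 5.84, 19.5 and 11.4 FPKM in repeat 1 (-3.06, SE 0.34). In repeat 1 the order was asr3-1, OX9 and WT for each of these genes, so the repeat difference was smallest in WT.

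A further 3 genes from the same list, annotated without a common name in RefSeq, showed the same order. AT1G47395 had 0.671, 0.668 and 1.25 FPKM in repeat 2, against 24.2, 76.0 and 50.7 FPKM in repeat 1 (-4.66, SE 0.32, adjusted p = 0.0013). AT1G47400, its neighbour, was at 0, 0.416 and 0 FPKM in repeat 2 and at 4.37, 43.6 and 18 FPKM in repeat 1, and AT2G30766 was at 1.41, 0.713 and 0 FPKM in repeat 2 and at 23.9, 91.7 and 59.6 FPKM in repeat 1. IRT1, the main root transporter for iron, was singled out after its values were seen: it had 0.645, 9.63 and 3.3 FPKM in repeat 2, against 7.40, 57.5 and 31.1 FPKM in repeat 1 (-2.57, adjusted p = 0.00030), so that the groups overlapped while every pair fell, and the call was lost with the libraries unpaired (adjusted p = 0.13) and in the fit of all 12 libraries (0.10). NAS3, which makes the metal chelator nicotianamine, rose by 1.76. Of the 38 iron genes, 9 were lower when either the asr3-1 or the OX9 pair was left out. The same 2 fits called 2742 and 3055 of all 20045 genes lower. The median of the list was -0.21 without the asr3-1 pair. Without the OX9 pair AT2G30766 (adjusted p = 0.078), AT1G47400 (0.069) and BHLH100 (0.15) lost their calls, as did AT2G30766 without the asr3-1 pair (0.060).

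Zinc and copper genes were mixed. Of 18 zinc genes, 2 were higher and 7 lower, with 4, 4 and 3 lower without the WT, asr3-1 and OX9 pair. Of 25 copper genes, 8 were higher and 8 lower, with 5 higher without the WT pair. The shares over all genes tested were 21.2% higher and 21.0% lower. ZIP2, a transporter of divalent metals, had 71.1, 63.9 and 55.4 FPKM in repeat 2, against 18.6, 21.2 and 9.60 FPKM in repeat 1 (1.94, SE 0.17, adjusted p = 0.0012). HMA2, a zinc pump, rose by 0.97, whereas IRT3 and ZIF1, both zinc transporters, fell by 0.92 and 0.83, and ZIF1 lost its call without the asr3-1 pair (adjusted p = 0.059). CSD1, the cytosolic copper/zinc superoxide dismutase, had 136, 127 and 187 FPKM in repeat 2, against 491, 339 and 483 FPKM in repeat 1 (-1.54, SE 0.11, adjusted p = 0.00067), and CSD2, its plastid counterpart, fell by 1.38. FRO4, a copper reductase, rose by 1.37, and ARPN, a small blue copper protein, fell by 1.1.

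Most sulfur limitation genes were lower in repeat 2. Of 17 tested, 13 were lower in repeat 2 and 0 higher by limma, also 0 at an unadjusted p under 0.05, with a median of -1.06. After length correction 15 were lower and the median was again -1.06. Over all genes tested, 21.0% were lower and 21.2% higher as deposited, and 15.4% and 14.7% after correction. LSU1, a small protein induced by sulfur shortage, had 3.28, 3.57 and 3.75 FPKM in repeat 2, against 57.9, 40.8 and 34.8 FPKM in repeat 1 (-3.3, SE 0.17, adjusted p = 0.00036). LSU3 and LSU2 fell by 3.14 and 2.02, and ATSDI1, a repressor of glucosinolate synthesis under sulfur shortage, by 3.04. APR1, an enzyme of sulfate reduction, had 14.4, 13.1 and 9.61 FPKM in repeat 2 and 42.1, 48.8 and 47.0 FPKM in repeat 1 (-1.83), and APR3 fell by 1.36. With any pair left out, 11 genes of the list were lower.

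Phosphate and nitrate genes leaned the other way in their counts without flg22. Of 23 phosphate genes, 12 were higher and 1 lower (8 and 1 after length correction), and of 24 nitrate genes 11 were higher and 0 lower, also 0 lower unadjusted (7 and 1 after correction). The medians of the phosphate and nitrate lists were 0.29 and 0.09 as deposited and 0.24 and 0.14 after correction. For the length classes of their members, the medians over all genes tested centred on -0.02 and 0.19. With flg22 and after correction, 6 phosphate genes were higher and 2 lower, and 6 nitrate genes went each way. PHO1, which loads phosphate into the xylem, rose by 1.31, PHO2, which marks phosphate transporters for breakdown, by 1.13, and the root transporter PHT1;1 by 1.05. The ribonuclease RNS1 fell by 1.94. NIA1, a nitrate reductase, rose by 0.92 and NLP7, the main nitrate-response factor, by 0.91. With 1 pair left out, 5 to 7 phosphate genes and 6 to 8 nitrate genes were higher.

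**Figure D3:**
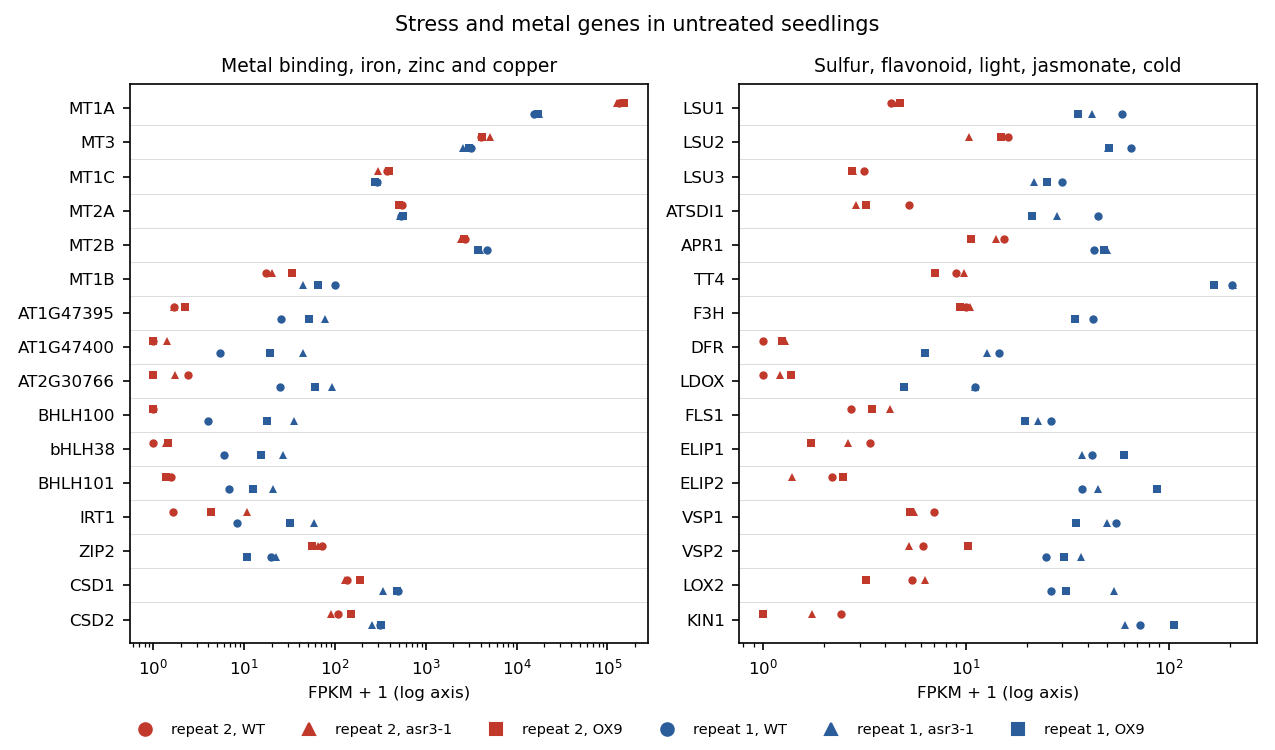
FPKM + 1 in untreated seedlings, on log axes, of metallothionein, iron, zinc and copper genes (left) and of sulfur, flavonoid, light, jasmonate and cold genes (right). Repeat 2 libraries are red in the upper row of each gene and repeat 1 libraries blue in the lower row; circles are WT, triangles asr3-1 and squares OX9. MT1A lies far to the right in repeat 2, while the iron, sulfur, flavonoid, light, jasmonate and cold genes shown lie to the left, IRT1 with overlap. The genes drawn are a chosen part of their lists, with KIN1 the only cold gene and ELIP1 and ELIP2 the only light genes.

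Most flavonoid genes were lower in repeat 2. Of 22 tested, 16 were lower in repeat 2 and 0 higher by limma (18 and 0 at an unadjusted p under 0.05), beside 21.0% lower and 21.2% higher over all genes tested. The median was -1.05 and, after length correction, -1.09. TT4, chalcone synthase, the first enzyme of the pathway, had 7.94, 8.85 and 6.07 FPKM in repeat 2, against 204, 208 and 166 FPKM in repeat 1 (-4.50, SE 0.08, adjusted p = 2.5e-06). F3H fell by 1.89 and FLS1, flavonol synthase, by 2.73. DFR, the first enzyme specific to anthocyanins, was at 0, 0.283 and 0.246 FPKM in repeat 2, against 13.6, 11.8 and 5.29 FPKM in repeat 1, LDOX, the next enzyme, fell by 2.84, and GSTF12, which carries anthocyanins to the vacuole, by 2.83. Every repeat 2 library lay below every repeat 1 library for 19 of the 22 genes. Such separation was not particular to this list, as 33 of 50 nuclear photosynthesis genes had it too. It was not counted over all genes tested. Without the OX9 pair, the median was -1.23.

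Light stress and jasmonate genes included falls of similar size. ELIP2 and ELIP1 bind chlorophyll under strong light. ELIP2 had 1.2, 0.385 and 1.49 FPKM in repeat 2, against 36.6, 43.8 and 86.3 FPKM in repeat 1 (-4.75, SE 0.22, adjusted p = 0.00034), and ELIP1 fell by 4.19. The light and shade list was divided, with 8 of 23 genes higher and 4 lower (4 or 5 higher with a pair left out), beside 21.2% and 21.0% of all genes tested. The 4 included ELIP1, ELIP2 and HYH, a light-signalling factor, at -1.0. Of 30 jasmonate genes, 3 were higher and 11 lower (median -0.21; 7 lower without the asr3-1 or the OX9 pair). VSP1, a vegetative storage protein, had 6.01, 4.56 and 4.34 FPKM in repeat 2, against 54.0, 48.8 and 34.0 FPKM in repeat 1 (-2.95, SE 0.11, adjusted p = 9.1e-05). VSP2 fell by 2.13, LOX2, a lipoxygenase of jasmonate synthesis, by 2.89, the chlorophyllase CLH1 by 1.62 and the repressor JAZ10 by 1.19. VSP1 and VSP2 are close copies whose reads may have been shared.

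Cold and water deficit genes had no common direction. Of 15 cold genes, 4 were higher and 4 lower, with 2 higher without the WT or the asr3-1 pair. KIN1, a small protein induced by cold and abscisic acid, was at 1.42, 0.746 and 0 FPKM in repeat 2, against 71.3, 60.05 and 106 FPKM in repeat 1 (-5.59, SE 0.42, adjusted p = 0.0027), and its tandem copy KIN2, with which it may share reads, fell by 1.73. The call on KIN2 was lost after length correction (-1.37, adjusted p = 0.076), under quantile normalization (-1.39, adjusted p = 0.10), without the WT pair (-1.68, adjusted p = 0.21) and with the libraries unpaired (adjusted p = 0.050). COR15A and COR15B, tandem genes for proteins that protect plastid membranes in frost, fell by 2.1 and 1.1; COR15A lost its call without the asr3-1 pair (adjusted p = 0.051) and COR15B with the libraries unpaired (0.050). COR413-PM1, a membrane protein of the same response, rose by 1.11, with 583, 588 and 487 FPKM in repeat 2 and 266, 257 and 242 FPKM in repeat 1, and the factor CBF2 rose by 0.90. Of 24 genes for abscisic acid and water deficit, 7 were higher and 5 lower, shares near the 21.2% and 21.0% of all genes tested, with 4 higher without the WT or the asr3-1 pair and 3 lower without the WT pair. Among them, RAB18, a dehydrin, rose by 1.03 and RD22 by 0.90, whereas RD26, a NAC factor, fell by 1.23 and RD20 by 1.08.

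Other stress lists showed smaller falls, beside 21.2% of all genes tested higher and 21.0% lower. Of 16 heat shock genes, 0 were higher and 5 lower by limma (1 and 6 at an unadjusted p under 0.05; 3 lower without the asr3-1 pair and 2 without the OX9 pair), with GolS1, which makes the osmolyte galactinol, at -0.48. Of 14 unfolded protein response genes, 0 were higher and 7 lower (0 and 8 unadjusted; median -0.40; 8 lower and -0.37 after length correction; -0.26 under quantile normalization and -0.29 without the WT pair). Among these, the endoplasmic reticulum chaperones ATERDJ3B, CRT1a and SDF2 fell by 0.98, 0.77 and 0.72. Of 33 oxidative stress genes, 5 were higher and 13 lower as deposited and 7 were in each direction after length correction. The ascorbate recycling enzymes MDHAR and DHAR1 fell by 1.16 and 0.92, and the catalase CAT1 rose by 1.05.

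Defence lists were lower or divided at rest, where 21.2% of all genes tested were higher and 21.0% lower. Of 21 salicylic acid genes, 1 was higher and 7 lower, among them SARD1, which activates salicylic acid synthesis, at -1.1, and WRKY70 at -1.06. Of 27 early flg22 markers, 8 were higher and 8 lower, with 4 higher without the WT or the asr3-1 pair and 5 lower without the OX9 pair. YLS9 (NHL10) rose by 1.30, while WRKY53 fell by 0.99 and CYP81F2, an indole glucosinolate enzyme, by 1.08. SARD1 lost its call without the asr3-1 pair (adjusted p = 0.073) and without the OX9 pair (0.065), and WRKY70 without the asr3-1 pair (0.061). Of 22 genes for indole glucosinolates and camalexin, 11 were lower and 0 higher (14 and 1 unadjusted; 7 lower without the WT pair); CYP71A13, a camalexin enzyme, had 0.0455, 0.0495 and 0.0858 FPKM in repeat 2, against 3.22, 5.33 and 5.29 FPKM in repeat 1. Of 21 aliphatic glucosinolate genes, 12 were lower and 1 higher, both before and after length correction, with GSTU20 at -1.48 and CYP79F1, which starts the pathway, at -1.35. Of 21 ethylene genes, 5 were higher and 10 lower (1 and 12 after correction; at most 1 higher, and 9 or 10 lower, with a pair left out), and ERF2, the receptor ERS2 and EBF2, which removes the ethylene factor EIN3, fell by 1.75, 1.37 and 1.26.

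In the libraries given flg22, which the choice of comparison did not use but which carry the same repeat numbers, 5527 of 20284 genes (27.2%) were higher in repeat 2 and 4327 (21.3%) lower. Of the genes higher without flg22, 3044 (71.7%) were higher with it, which is 55.1% of those higher with it, and 2811 of those lower (66.8%) were lower with it, which is 65.0%. With flg22 the medians were -1.07 over flavonoid and -0.96 over sulfur genes. Not every list kept its median: iron went from -0.37 without flg22 to -0.09 with it, and heat shock from -0.34 (16 genes tested) to -1.15 (20 genes tested). Members were filtered on low values separately with and without flg22, so the medians of a list can be over different genes. Cold genes went from 0.19 to -1.99 and salicylic acid genes from -0.19 (21 tested) to 0.69 (20 tested). The test of the difference itself, over all 12 libraries, called 2181 of 20574 genes (10.6%).

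The immune genes CYP81F2, SARD1, WRKY53 and WRKY70 were among them. CYP81F2 had 2.28, 2.22 and 2.89 FPKM in repeat 2 without flg22, against 4.82, 4.45 and 11.3 FPKM in repeat 1, but was higher in repeat 2 by 2.55 with flg22. SARD1 and WRKY53 were higher in repeat 2 by 2.25 and 2.28 with flg22, and 23 of 28 early flg22 markers were higher and 0 lower (24 and 0 unadjusted), with a median of 1.78. COR15A and COR15B, already lower without flg22, fell by 5.24 and 3.56 with it. PRR5, at 1.61 without flg22, was at 0.28 with it, and did not pass there (adjusted p = 0.13).

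**Figure D4:**
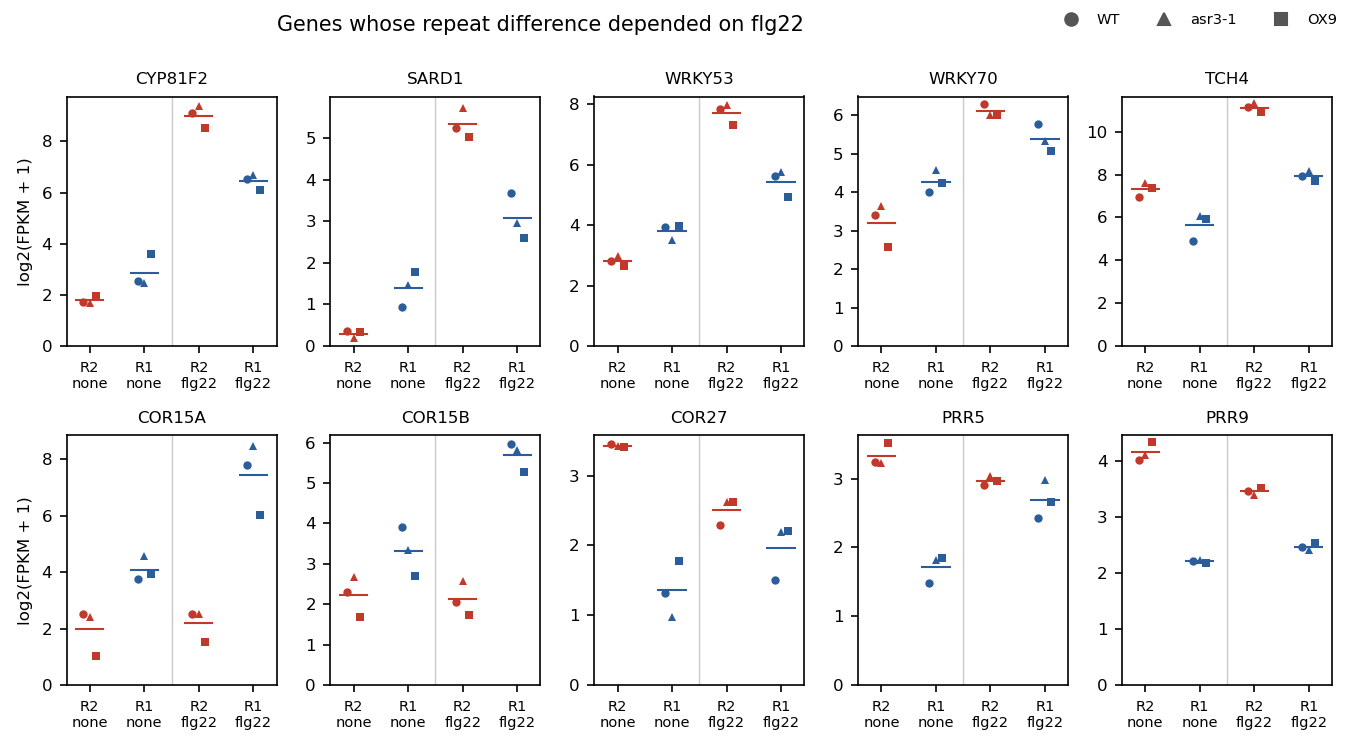
Log2(FPKM + 1) of 10 genes whose repeat difference depended on flg22 by the interaction test. In each panel the left pair of columns is untreated and the right pair given flg22, with repeat 2 (red) left of repeat 1 (blue); symbols are the 3 genotypes and bars their means. CYP81F2, SARD1 and WRKY53 are lower in repeat 2 without flg22 and higher with it.

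The counts for photosynthesis and ribosomal protein genes changed with length correction and with scaling. They stand beside 21.2% higher and 21.0% lower over all genes tested, and 14.7% and 15.4% after length correction. Of 50 nuclear photosynthesis genes, 32 were lower and 5 higher, with a median of -0.30; after length correction 14 were lower, 8 higher and the median was -0.10, and under quantile normalization 11 were lower and the median was 0.0028. Without the asr3-1 pair 18 were lower. NPQ4 (PsbS), which dissipates excess light, had 877, 762 and 747 FPKM in repeat 2, against 1674, 1816 and 1524 FPKM in repeat 1 (-1.07, and -0.98 after correction), and the antenna proteins LHCB6 and CAB3 fell by 0.89 and 0.80; CAB3 has near-identical copies. RBCS1A, a small subunit of Rubisco, had 9200, 8434 and 7782 FPKM in repeat 2 and 12896, 14394 and 11826 FPKM in repeat 1, and its fall of 0.62 was not called under quantile normalization (-0.12, adjusted p = 0.34). Of 287 nuclear genes whose RefSeq product names a ribosomal protein, a list that also took in some plastid and mitochondrial ribosomal proteins and elongation factors, 165 were lower and 11 higher, with a median of -0.35 (5 and 7 higher without the asr3-1 and OX9 pair); after correction 71 were lower and 27 higher and the median was -0.10, and quantile normalization gave 84 lower and -0.12.

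Of 27 cell cycle and histone genes, 7 were higher and 15 lower (7 and 11 after length correction; 4 higher without the asr3-1 pair). SYP111 (KNOLLE), the syntaxin of dividing cells, fell by 1.74, CYC1BAT, a B-type cyclin, by 1.34, and the kinase AUR2 by 1.32. The DNA replication helicase subunits MCM3 and PRL (MCM7) rose by 1.21 and 1.19. MCM3 had 11.3, 13.3 and 11.7 FPKM in repeat 2, against 4.66, 4.03 and 5.24 FPKM in repeat 1, while SYP111 had 9.23, 8.20 and 7.14 FPKM in repeat 2, against 29.2, 30.9 and 28.6 FPKM in repeat 1. Wall genes were mixed, with 11 of 33 higher and 9 lower (6 higher without the asr3-1 or the OX9 pair), beside 21.2% and 21.0% of all genes tested. TCH4, a touch-induced wall enzyme, rose by 1.68 and the expansin EXPA15 fell by 1.71.

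Markers of organs and cell types moved too, and their part in the results above was not tested. Over all genes tested, 21.2% were higher and 21.0% lower as deposited, and 14.7% and 15.4% after length correction. Of 27 root markers, 3 were higher and 11 lower, or 2 and 8 after length correction. With any pair left out 1 was higher, and without the WT or the asr3-1 pair 7 were lower. The summed FPKM of the root markers was 2004 to 2849 in repeat 2, against 3193 to 3677 in repeat 1. PYK10, a root β-glucosidase, fell by 0.94, although not without the WT pair (adjusted p = 0.081), and NRT1.5, a nitrate transporter of the root stele, rose by 1.35. Of 19 epidermis and cuticle markers, 10 were higher and 1 lower (8 and 2 after length correction), with a median of 0.27. For the length classes of these markers, the medians over all genes tested centred on 0.19. After correction the median of the list was 0.18. LTP2, a lipid transfer protein, was at 0.90 and ABCG11, a cuticle lipid exporter, at 0.84. Of 12 phloem and xylem markers, 1 was higher and 4 lower (2 lower without the asr3-1 pair), with the phloem lectin PP2-A1 at -1.69. Of 12 guard cell markers, 2 were higher and 1 lower, shares below the 21.2% and 21.0% of all genes tested. Seed and pollen markers were nearly absent: 4 of 20 and 2 of 15 passed the filter on low values.

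The largest rises by size were led by TPX2 (AT1G65970), a thioredoxin-dependent peroxidase, with 435, 249 and 320 FPKM in repeat 2, against 16.7, 34.1 and 37.9 FPKM in repeat 1 (3.5, SE 0.45, adjusted p = 0.013; adjusted p = 0.066 without the OX9 pair). Its neighbour TPX1 is a near-identical copy, and the sum of both was 658, 455 and 535 FPKM in repeat 2 and 357, 317 and 332 FPKM in repeat 1. AT2G07739, annotated as a Ycf1 protein, had 33.7, 31.7 and 33.3 FPKM in repeat 2 and 4.52, 3.49 and 2.82 FPKM in repeat 1. AT5G66053, of 147 nt, had 6716, 5244 and 6493 FPKM in repeat 2, against 962, 843 and 1070 FPKM in repeat 1 (2.68), and AT5G66052, next to it, rose by 2.38. BGLU34, a β-glucosidase of the myrosinase group, rose by 2.25.

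A further ranking, added after the values were seen, took protein-coding genes of at least 500 nt with a mean of at least 5 FPKM, above 0 in all 6 libraries, after length correction. In it 11 genes were higher by at least 2 and 49 lower by at least 2. Beside ELIP2, AT1G47395, TT4 and ELIP1 it led with AT5G42530, which had 70.9, 41.5 and 31.8 FPKM in repeat 2 and 641, 952 and 699 FPKM in repeat 1, and AT2G25510, with 27.3, 15.5 and 23.7 FPKM in repeat 2 and 254, 451 and 398 FPKM in repeat 1. RefSeq gives neither a common name. GASA5, a gibberellin-regulated peptide, had 3.12, 0.833 and 4.34 FPKM in repeat 2, against 53.7, 50.5 and 47.3 FPKM in repeat 1. GRP-3, a glycine-rich wall protein in the carbon starvation list, fell by 1.95. Of the 27 genes of that list 1 was higher and 3 lower, below the 21.2% and 21.0% of all genes tested. Without the WT pair 12 were lower, and the list's median was 0.38, -0.37 and -0.64 in the WT, asr3-1 and OX9 pair. The myrosinase-group gene BGLU35 rose by 1.91 in the same ranking.

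**Figure D5:**
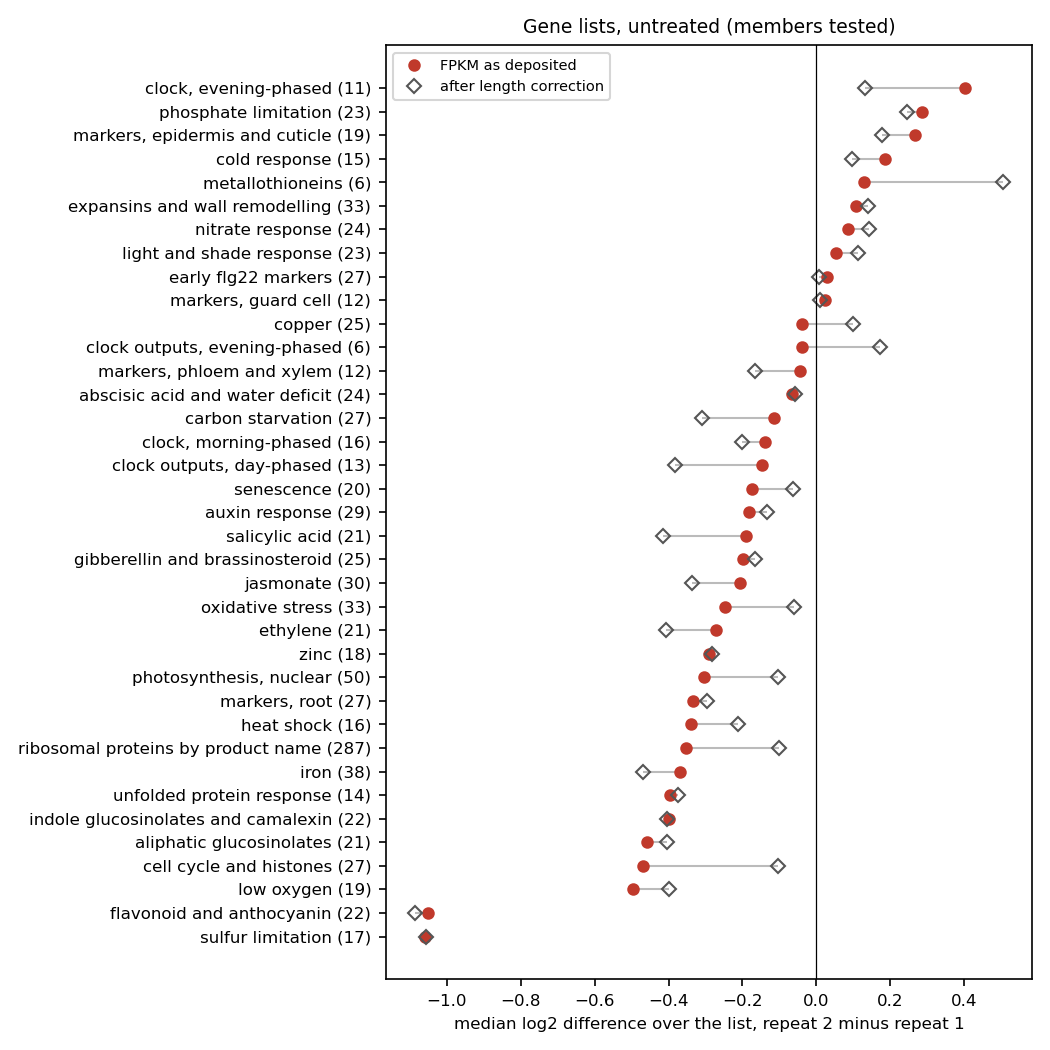
Median difference of log2(FPKM + 1), repeat 2 minus repeat 1, over each gene list with at least 6 members tested (number in brackets), trihelix factors left out, in untreated seedlings. Filled circles are FPKM as deposited and open diamonds the values after length correction. Sulfur and flavonoid genes lie near -1 on both scales, whereas photosynthesis, ribosomal protein and cell cycle genes move towards 0.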

How the data were processed

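The deposited table of all 12 samples holds FPKM per gene, the authors' normalization by transcript length and mapped fragments, per the file headers. Per the submitters' processing notes the tools were bcl2fastq 1.8.4, cutadapt 1.0, TopHat2 2.0.12 and Cuffdiff 2.2.1 with build TAIR10; their settings, the gene models and read totals are not given in the sources used here. Of 33373 lines with an identifier, 33197 identifiers that occur once were kept; none was a plastid or mitochondrial one, so those lists were empty. Names, lengths and sequence came from RefSeq (TAIR10.1), which matched 32710 identifiers.

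Genes with at least 1 FPKM in 2 of the 6 untreated libraries were tested on log2(FPKM + 1), which understates changes of low genes, with limma 3.58.1 in R 4.3.3 (mean-variance trend, robust), with repeat and genotype as terms and Benjamini-Hochberg adjustment. The genotype forms the pair; the replicate number is the factor compared, so it could not be a block. The length correction subtracted a loess curve (span 0.4) of each library against log10 transcript length. The flg22 libraries had the same fit, and an interaction of repeat and treatment was fitted over all 12. Scripts were tested on simulated data.

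Members and lists were chosen with earlier results of these data known. Lists (40) are described by counts and medians, without a set test. Named genes are the 12 largest rises and falls (mean of at least 5 FPKM, repeats not overlapping), every clock gene and metallothionein, up to 6 members per list, ASR3 and the 5 highest genes; the text describes part of them. Alternatives were pseudocounts of 0.1 and 10, filters, scalings, length, level and GC corrections, unpaired and 12-library fits, and each pair left out. The flg22 dose is given as 100 nM in one label and in another unit elsewhere.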

Additional observations from a re-analysis of the deposited data

Results flagged for a closer look

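Of the 141 genes named in the report, 28 had a difference between repeats that itself differed with and without flg22, by the interaction term of limma over all 12 libraries (adjusted p under 0.05). Over all genes tested the share was 10.6%. Many of the 141 were named by the size of their difference without flg22, which the interaction subtracts. Their share and directions therefore cannot be compared with those of all genes. Values here are the log2 difference between repeats with flg22 minus that without it. No group holds more than 3 libraries, so single libraries were not screened for outliers.

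The repeat difference was higher with flg22 for 12 genes. It was higher by 3.63 for CYP81F2, 3.34 for SARD1, 3.26 for WRKY53 and 1.77 for WRKY70, all immune genes that fell in repeat 2 without flg22 and rose with it. TCH4 was higher by 1.51, having risen in both. ERF2 (1.46), MDHAR (1.24), VSP1 (1.06), PYK10 (0.85), APR3 (0.76), HYH (0.61) and TOC1 (0.57) followed.

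It was lower with flg22 for 16 genes. Over all genes tested, the interaction was called above 0 for 1606 and below 0 for 575. Cold genes led, with -3.14 for COR15A, -2.47 for COR15B, -1.61 for COR413-PM1 and -0.79 for CBF2. Clock genes and outputs made up 7 of the 16: COR27 at -1.52, PRR5 at -1.33, RVE1 at -0.98, PRR9 at -0.96, RVE7 (EPR1) at -0.73, COL1, a CONSTANS relative, at -0.61 and LNK4 (AT5G06980) at -0.58. The remaining values were -0.76 for EBF2, -0.75 for RD26, -0.72 for RD22, -0.62 for MT2A and -0.62 for ABCG11.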

How the results depend on the processing

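The counts of genes stayed within 1.5 times under pseudocounts, scalings, corrections and the fits tried, except that 2733 were higher with a mean of at least 10 FPKM. With 1 pair left out, 2324 to 2972 were higher and 2742 to 3055 lower; with the length correction as well, 1380 to 1874 and 1524 to 2066. Pairs are genotypes, and with no such pairing (no replicate block) 4379 were higher and 4193 lower; with flg22, 5561 and 4322. After length correction 4205 were higher and 3819 lower with flg22, and the interaction called 1640 above and 560 below 0. Length and GC correction, the length-corrected fits with a pair left out and that of the interaction were chosen after seeing the data.

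Length correction gave medians of 0.13 (evening clock), 0.50 (metallothioneins), -0.10 (photosynthesis, 14 lower) and -0.10 (ribosomal proteins, 71 lower). Quantile normalization gave 0.46, 0.0028 (11 lower) and -0.12 (84 lower) for the last 3, and -0.26 for the unfolded protein response. With pairs left out, the evening clock had 3 to 5 genes higher, iron 9 to 15 lower (median -0.44 to -0.21), photosynthesis 18 to 24 lower, flavonoids a median of -1.23 to -1.01 and the unfolded protein response one of -0.42 to -0.29.

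Of 141 named genes, 90 kept direction and call under every alternative run for them, which were 18 for 105 genes and 17 for the 36 left out by the filter on a mean of at least 10 FPKM. The 7 that changed sign were never called on both sides. LNK2 (AT3G54500) was at -0.017 under median-ratio scaling and, after the length, length and level, and length and GC corrections, at -0.21, -0.15 and -0.23; ZTL was at -0.033 and -0.045 after the first 2, and AT4G01280 at -0.0033 after the last. MT2A was at 0.30 (quantile), 0.22, 0.30 and 0.27, GRP7 at 0.11 (quantile) and 0.038 (GC), and MT2B at 0.0067 (GC). Over the fits with a pair left out, with and without length correction, AT4G01280 ranged from -0.080 to 0.29, LNK2 from -0.25 to 0.044, ZTL from -0.075 to 0.19, LKP2 from -0.36 to 0.026, GRP7 from -0.53 to 0.081 and MT2A from -0.094 to 0.27. The cause was not tested.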
